A study of Mus musculus with 20 samples.

Results

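The transcription factors that accompany the differentiation of effector regulatory T cells were followed as a group of 9 genes, Irf4, Tbx21, Nfil3, Bhlhe40, Prdm1, Rora, Id2, Ikzf3 and Bcl6, out of 19505 genes measured. They were found by gene symbol in the array annotation, and each gene was represented by its probe set of highest mean signal. Gene expression had been profiled on 20 Clariom S mouse microarrays, 1 per sample, in regulatory T cells (Tregs) of C57BL/6 background, obtained by CD4 bead enrichment followed by a sort for CD4+CD25+ cells. The Rheb experiment held 12 arrays: WT cells and cells lacking Rheb and its relative Rhebl1 (labelled Rheb1/2 KO, here Rheb KO), each unstimulated and stimulated, with 3 arrays per group. The Rag experiment held 8 arrays: WT cells and cells lacking RagA and RagB (labelled RagAB KO, here Rag KO), each unstimulated and stimulated for 8 hours, with 2 arrays per group. The Rag GTPases bring the kinase complex mTORC1 to the lysosome and the GTPase Rheb activates it there, and the study's title asks whether they carry amino acid signals in Tregs. The stimulus, its duration in the Rheb experiment, the Cre driver, the age of the mice and whether arrays came from separate animals are not given in the sources used for this work, so the p-values measure the spread between arrays, which may be partly technical.

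Resting Tregs that receive antigen receptor signals become effector Tregs, which move into tissues and make more of the molecules that suppress other cells. IRF4 and Blimp-1, the product of Prdm1, are the best known regulators of that step, and T-bet (Tbx21) and Bcl-6 adapt Tregs to type 1 inflammation and to B cell follicles. NFIL3, BHLHE40, RORα, ID2 and Aiolos (Ikzf3) are further regulators of lymphocyte differentiation that are expressed in effector or tissue Tregs.

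The 250 bases upstream of the annotated start are shown for Irf4, Nfil3 and Tbx21, the 3 factors called higher with stimulation in at least 1 genotype of each experiment, because most of the results on induction turn on them. The sequences come from a set of promoter windows on GRCm38.p6, which held an entry for 7 of the 9 genes. The starts used for Irf4 and Tbx21 lay at an end of the gene as annotated in RefSeq. That of Nfil3 was not found at such an end, so its positions hold for the start used here. The sequences are given 5′ to 3′ on the strand of the gene: Irf4 at chr13:30748983-30749232 on the plus strand, Nfil3 at chr13:52981040-52981289 on the minus strand and Tbx21 at chr11:97115332-97115581 on the minus strand. Capitals mark matches, on either strand, to the motifs described after the sequences.
Irf4: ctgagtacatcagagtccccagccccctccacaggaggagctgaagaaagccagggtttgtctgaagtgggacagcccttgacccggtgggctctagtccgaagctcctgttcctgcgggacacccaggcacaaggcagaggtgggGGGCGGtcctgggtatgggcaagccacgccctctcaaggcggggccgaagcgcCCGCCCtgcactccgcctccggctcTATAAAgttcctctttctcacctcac
Nfil3: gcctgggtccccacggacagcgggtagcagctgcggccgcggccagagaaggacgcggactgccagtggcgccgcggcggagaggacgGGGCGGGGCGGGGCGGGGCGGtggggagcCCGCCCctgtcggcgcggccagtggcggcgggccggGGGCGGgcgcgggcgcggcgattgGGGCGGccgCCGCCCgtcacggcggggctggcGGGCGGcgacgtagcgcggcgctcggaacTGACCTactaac
Tbx21: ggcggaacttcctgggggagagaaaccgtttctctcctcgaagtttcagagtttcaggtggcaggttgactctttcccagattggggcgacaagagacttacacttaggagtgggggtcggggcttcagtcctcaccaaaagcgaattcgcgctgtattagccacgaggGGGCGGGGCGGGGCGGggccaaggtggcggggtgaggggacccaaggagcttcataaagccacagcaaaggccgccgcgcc

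Each window was searched on both strands for 9 motifs. Those of factors active in stimulated T cells were the AP-1 site TGANTCA, the core of NFAT sites, spelled GGAAAA, and the paired GAAA motif of interferon response elements. Sites that members of the group themselves can bind were the E-box of BHLHE40 type, CACGTG, the T-box AGGTGTGA, the nuclear receptor element AGGTCA and the motif of NFIL3 type, TTANGTAA. The general promoter elements were the TATA box, searched as TATAAA, and the GC box, searched as GGGCGG. The Irf4 window held a TATA box that starts at position -26 from the start site, and GC boxes at -104 and -51. The Nfil3 window held no TATA box but 9 GC boxes, some sharing a base, and an AGGTCA match at -12. The Tbx21 window held 3 GC boxes that overlap by a base each. Among all 32851 windows of that length in the set, 32.7% held a GC box, 12.4% a TATA box and 14% AGGTCA, so these elements are common. G and C made up 63.6% of the Irf4 window, 81.6% of the Nfil3 window and 60.8% of the Tbx21 window, against a median of 52.4% over all windows. These 3 windows held no match to the AP-1, E-box, NFAT, interferon response, T-box or NFIL3 type motifs, which were found in 6.75%, 6.02%, 20.4%, 2.98%, 1.12% and 2.06% of all windows. That says only that these letters are not in these windows. Of the other members, Prdm1 held an AP-1 match at -48, Rora an NFAT core match at -93 and Id2 a GC box at -16. Bcl6 has 2 annotated windows: one held an E-box match at -60 and a GC box at -41, the other NFAT core matches at -239 and -28. The starts used for Prdm1, Rora and Bcl6 were not found at an end of the gene as annotated in RefSeq.

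Median signal per array was 7.67 to 7.77 on the log2 scale in the Rheb experiment and 7.18 to 7.55 in the Rag experiment, so levels were compared only within an experiment. The 2 lowest medians of the Rag experiment, 7.18 and 7.29, were both of unstimulated arrays, WT array 2 and Rag KO array 1. Stimulation changes in that experiment therefore also depend on how the arrays are scaled. Rheb signal was lower in Rheb KO than in WT arrays, by 0.88 unstimulated and 0.93 stimulated on the log2 scale. Rraga, which encodes RagA, was lower in Rag KO arrays by 2.43 and 2.18, with no overlap between genotypes in either case. For 6 arrays of the Rheb experiment the treatment field contradicts the sample title, and the titles, which the study's design text matches, were followed. The T cell genes Cd3e, Cd3d, Cd3g and Cd4 exceeded the 95th percentile of the negative control probe sets of their array in 20 of 20 arrays. Il2ra, which encodes the sorted CD25, exceeded it in 0 arrays and lay above the array median in 14. Foxp3, the defining Treg gene, was not found by symbol among the genes measured, so it was not analysed here. The B cell gene Ms4a1, the NK cell genes Ncr1 and Klrb1c and the macrophage genes C1qa and Csf1r exceeded it in 0 arrays, as did the B cell gene Cd79a and the CD8 T cell gene Cd8a. Cd8b1, another CD8 T cell gene, exceeded it in 1 array, at signals of 8.69 to 9.87, and lay above the array median in 20 of 20 arrays, as Cd79a did in 17, Csf1r in 6, C1qa in 4 and Cd8a in 2. All 6 genes of a conventional CD4 T cell list lay above the median in every unstimulated WT array. With stimulation 5 fell in WT and in Rheb KO cells (adjusted p below 0.05 in limma), at medians of -1.02 and -0.78. Among all genes 9.37% and 9.75% were called, in either direction. In the Rag experiment 2 of the 6 fell in WT and 0 in Rag KO cells (medians -1.08 and -0.22), where 1.00% and 1.32% of all genes were called. Against WT, 0 of 6 had a change above 0 in unstimulated Rag KO and 4 in unstimulated Rheb KO cells. In each 1 was called lower, where 0.113% and 0.508% of all genes were called. The part of these 6 genes in the factor values was not tested.

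The 9 factors differed in how often they exceeded that control level. Ikzf3 exceeded it in 20 of 20 arrays, Nfil3 in 16 and Rora in 14. Bhlhe40 exceeded it in 13, Irf4 in 10 and Id2 in 9. The 10 arrays for Irf4 were the 10 stimulated ones, while the 4 arrays in which Nfil3 stayed below were the unstimulated arrays of the Rag experiment. Tbx21 exceeded it only in the 4 stimulated arrays of the Rag experiment, and Prdm1 and Bcl6 in 0 arrays, so their values lie where the signal of control probes also falls. Where every unstimulated array of a group was at or below that level and stimulated arrays were above it, the fold is given as a lower bound, with the unstimulated signal raised to the control level of its array; log2 differences are those of the measured signals.

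**Figure D1:**
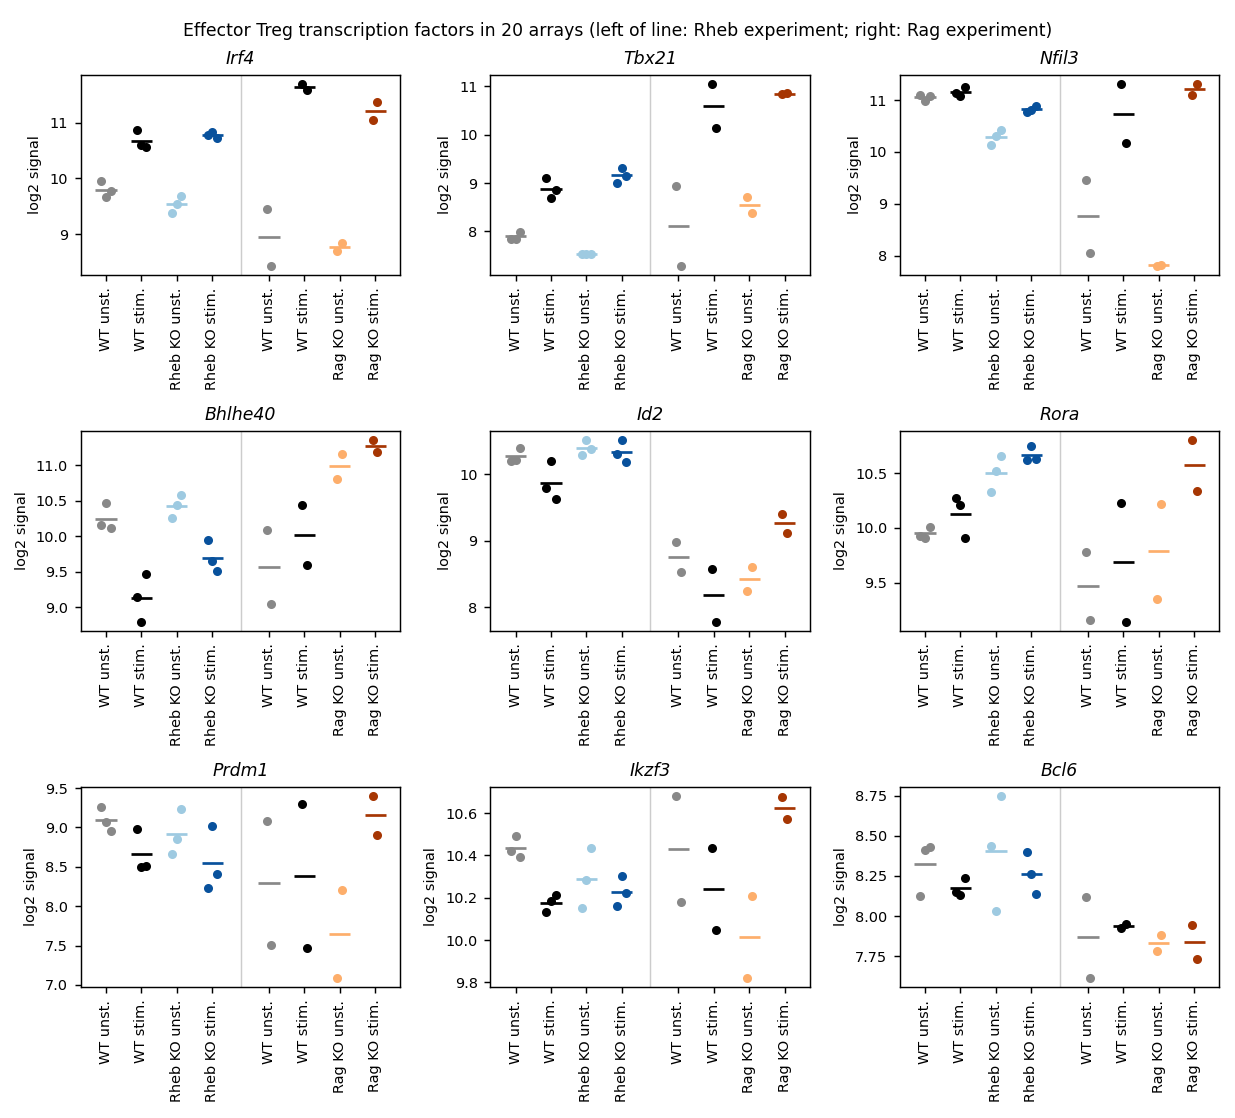
Log2 signal (vertical axis) of each of the 9 factors in the 8 groups (horizontal axis), with 1 point per array and a line at the group mean; the grey vertical line separates the Rheb experiment (3 arrays per group) from the Rag experiment (2 arrays per group). Irf4 and Tbx21 were higher in every stimulated array than in every unstimulated array of the same genotype and experiment, whereas Bhlhe40 was lower in the stimulated arrays of the Rheb experiment only.

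The first comparison asked how stimulation changed the 9 factors in each genotype. In WT Tregs of the Rheb experiment Irf4 and Tbx21 rose and Bhlhe40 fell, so that 3 of 9 factors (33.3%) changed at an adjusted p below 0.05 (limma, Benjamini-Hochberg adjustment over all genes), where 9.37% of all genes did. In Rheb KO Tregs Irf4, Tbx21 and Nfil3 rose and Bhlhe40 fell, 4 of 9 (44.4%) against 9.75% of all genes. In the Rag experiment Irf4, Tbx21 and Nfil3 rose in both genotypes and none fell, 3 of 9 in WT cells against 1.00% of all genes and 3 of 9 in Rag KO cells against 1.32%. The median change of the 9 factors was -0.15 in WT and -0.06 in Rheb KO cells on the log2 scale, against 0.02 and -0.01 for all genes. The corresponding medians of the Rag experiment were 0.22 in WT and 0.84 in Rag KO cells, against 0.21 and 0.09 for all genes. In bulk samples such as these, fewer cells of a type and less RNA per cell cannot be told apart. Where arrays are said not to overlap, that is a description, because the share of all genes without overlap is not given here.

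Irf4, which drives effector differentiation in proportion to antigen receptor signal strength, gave log2 signals of 9.95, 9.67 and 9.78 in unstimulated WT arrays of the Rheb experiment and 10.87, 10.60 and 10.56 in stimulated ones. In Rheb KO arrays the values were 9.38, 9.54 and 9.69 without and 10.79, 10.84 and 10.73 with stimulation. Every stimulated array thus lay above every unstimulated array, whichever the genotype. The rise was 0.88 ± 0.117 (SE) in WT cells, at least 1.63-fold (adjusted p = 0.000379), and 1.24 ± 0.117 in Rheb KO cells, at least 1.7-fold (adjusted p = 2e-05). Irf4 signals in the Rag experiment were 9.46 and 8.44 in unstimulated WT arrays, 11.70 and 11.59 in stimulated WT arrays, 8.70 and 8.84 in unstimulated Rag KO arrays and 11.04 and 11.36 in stimulated Rag KO arrays. All 4 stimulated arrays exceeded all 4 unstimulated ones, by 2.70 ± 0.303 in WT cells (at least 3.77-fold, adjusted p = 0.00191) and 2.43 ± 0.303 in Rag KO cells (at least 2.77-fold, adjusted p = 0.00206).

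Tbx21 encodes T-bet, the factor of type 1 responses. In the Rheb experiment its log2 signals were 7.84, 7.85 and 7.99 in unstimulated and 9.11, 8.69 and 8.86 in stimulated WT arrays. Rheb KO arrays gave 7.53, 7.53 and 7.54 without stimulation and 9.01, 9.32 and 9.15 with it. The unstimulated Rheb KO arrays were the lowest of the 12, below every unstimulated WT array, and the stimulated groups of both genotypes overlapped. The rise was 0.99 ± 0.118 in WT cells (adjusted p = 0.000161) and 1.63 ± 0.118 in Rheb KO cells (adjusted p = 4e-06), and no fold is given because 0 of these 12 arrays exceeded the control level. WT arrays of the Rag experiment gave 8.93 and 7.29 unstimulated and 11.06 and 10.13 stimulated, and the Rag KO arrays 8.71 and 8.39 unstimulated and 10.84 and 10.86 stimulated. No stimulated array overlapped an unstimulated one, although the unstimulated WT arrays lay far apart. The rise was 2.48 ± 0.431 in WT (at least 1.82-fold, adjusted p = 0.0155) and 2.30 ± 0.431 in Rag KO cells (at least 2.17-fold, adjusted p = 0.0196). The WT call was lost without WT unstimulated array 2 (1.66), WT stimulated array 1 (2.02) or WT stimulated array 2 (2.95). The Rag KO call was lost without either stimulated Rag KO array (2.31 and 2.29).

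Nfil3 encodes a basic leucine zipper repressor needed for the development of innate lymphoid cells. In the Rheb experiment its log2 signals in WT arrays were 11.09, 10.99 and 11.08 unstimulated and 11.14, 11.08 and 11.24 stimulated. In Rheb KO arrays they were 10.14, 10.31 and 10.43 unstimulated and 10.76, 10.81 and 10.89 stimulated. The WT groups overlapped, at a change of 0.10 ± 0.0976 (adjusted p = 0.639), while the Rheb KO groups did not. The rise in Rheb KO cells was 0.53 ± 0.0976 (1.44-fold, adjusted p = 0.00321), and it was not called when all 20 arrays shared 1 spread (adjusted p = 0.363). Nfil3 in the Rag experiment was at 9.46 and 8.07 in unstimulated WT arrays and at 11.30 and 10.16 in stimulated ones. Rag KO arrays were at 7.82 and 7.83 without and at 11.10 and 11.32 with stimulation. The rise was 3.38 ± 0.414 in Rag KO cells (at least 2.78-fold, adjusted p = 0.00188) and 1.97 ± 0.414 in WT cells (at least 2-fold, adjusted p = 0.041), from unstimulated signals that were not above the control level in any of the 4 arrays. The WT call rested on each WT array but 1: the change was 1.28 without unstimulated array 2, 1.40 without stimulated array 1 and 2.54 without stimulated array 2, none of them called. It was also lost, at 1.97, without either stimulated Rag KO array, and, at 1.28, without the 2 arrays of lowest median signal (adjusted p = 0.0518).

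Bhlhe40, a basic helix-loop-helix repressor that supports cytokine production and restrains Il10, went the other way in the Rheb experiment. Its log2 signals were 10.15, 10.47 and 10.11 in unstimulated and 9.15, 8.80 and 9.47 in stimulated WT arrays. Rheb KO arrays gave 10.25, 10.43 and 10.59 unstimulated and 9.94, 9.64 and 9.51 stimulated. Stimulated arrays lay below unstimulated arrays in each genotype, with a fall of 1.11 ± 0.171 in WT cells (adjusted p = 0.00104) and 0.72 ± 0.171 in Rheb KO cells (adjusted p = 0.015). The call in Rheb KO cells was lost with all 20 arrays in the fit (adjusted p = 0.0968) and without Rheb KO unstimulated array 3 (-0.64), stimulated array 2 (-0.70) or stimulated array 3 (-0.63). WT arrays of the Rag experiment gave 10.09 and 9.04 unstimulated and 10.44 and 9.59 stimulated, an overlap, with a change of 0.45 ± 0.349 (adjusted p = 0.509). Rag KO arrays gave 10.81 and 11.15 unstimulated and 11.36 and 11.19 stimulated, a change of 0.29 ± 0.349 (adjusted p = 0.881).

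Bhlhe40 is also expressed in myeloid cells, and marker genes of such cells moved in the same arrays. Of 10 measured macrophage markers 7 fell with stimulation in each genotype of the Rheb experiment, with a median change of -0.54 in WT and -0.88 in Rheb KO cells, and 4 of 9 dendritic cell markers fell in each genotype. Among all genes 9.37% in WT and 9.75% in Rheb KO cells were called, in either direction. The summed linear signal of the macrophage markers was 1830 to 1865 in unstimulated and 1174 to 1361 in stimulated WT arrays, and 2471 to 2605 and 1140 to 1181 in the Rheb KO arrays. That of the dendritic cell markers was 2699 to 2905 and 1574 to 1894 in WT arrays, and 4111 to 4413 and 1976 to 2134 in Rheb KO arrays. In the Rag experiment the dendritic cell sum was 1062 to 1654 and 1525 to 1620 in WT arrays, and 2397 to 3144 and 2967 to 3006 in Rag KO arrays, the arrays in which Bhlhe40 was highest. Of the 9 markers, 8 had a change above 0 between Rag KO and WT cells unstimulated and 4 with stimulation, with 0 called. The macrophage sum there overlapped between genotypes, at 678 to 941 and 895 to 1007 in WT arrays and 853 to 1345 and 980 to 1160 in Rag KO arrays. Of the 10 macrophage markers 9 were above 0 unstimulated and 5 with stimulation, with 0 called. Between stimulated Rheb KO and WT cells 4 of 10 macrophage and 8 of 9 dendritic cell markers were above 0. The macrophage markers exceeded the control level in every array of a group in 0 of 10 cases in all 8 groups. One dendritic cell marker did so in the unstimulated Rheb KO arrays and in both Rag KO groups. Their part in the Bhlhe40 values was not tested.

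**Figure D2:**
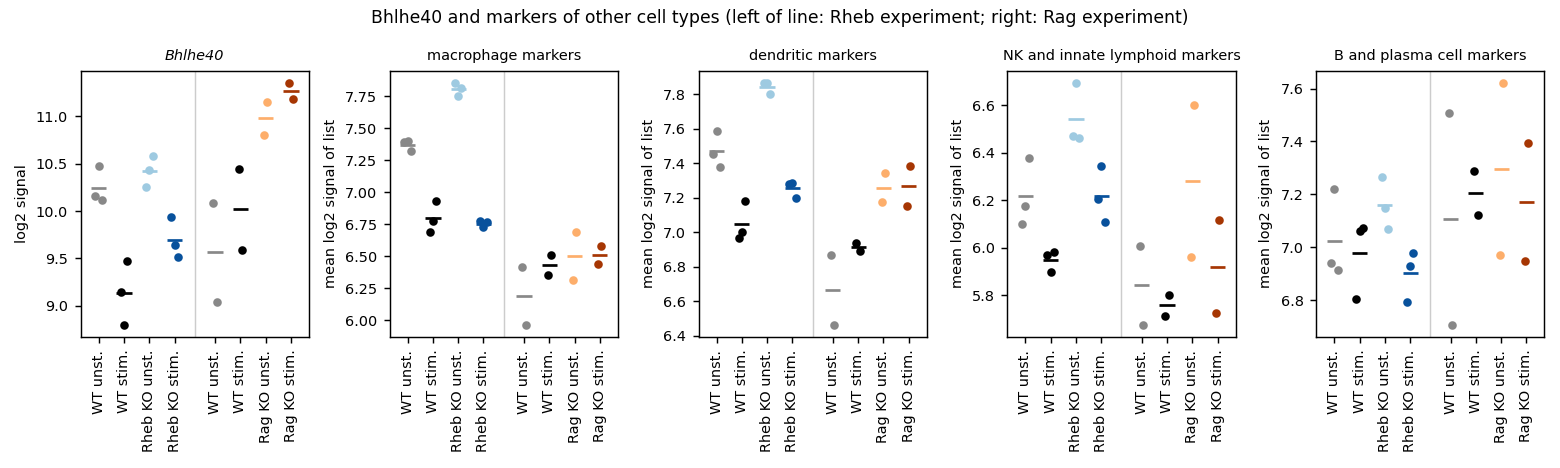
Log2 signal of Bhlhe40 (first panel) and mean log2 signal of the markers of macrophages (10 genes), dendritic cells (9 genes), NK and innate lymphoid cells (8 genes) and B and plasma cells (10 genes) in the 8 groups (horizontal axis), with 1 point per array and a line at the group mean. In the Rheb experiment Bhlhe40 and the macrophage and dendritic cell means were all lower in stimulated than in unstimulated arrays of each genotype, and in the Rag experiment Bhlhe40 and the dendritic cell mean were higher in every Rag KO array than in every WT array.

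The remaining 5 factors passed the test for stimulation in neither genotype of either experiment. Id2, an inhibitor of E proteins that maintains effector lymphocytes, was at 10.20, 10.22 and 10.39 in unstimulated and at 9.80, 10.20 and 9.62 in stimulated WT arrays of the Rheb experiment. Array 2 overlapped the unstimulated group, and the change of -0.39 ± 0.142 (adjusted p = 0.114) was called only without that array (-0.56, adjusted p = 0.0222). Its relative Id3, which marks resting Tregs, fell by 2.19 ± 0.249 in WT cells (adjusted p = 0.000118) and by 2.04 ± 0.249 in Rheb KO cells (adjusted p = 0.000155). Id3 in the Rag experiment changed by -1.14 ± 0.336 in WT cells (adjusted p = 0.143) and fell by 2.12 ± 0.336 in Rag KO cells (adjusted p = 0.00827). Id2 there was at 8.98 and 8.53 in unstimulated and 8.58 and 7.78 in stimulated WT arrays, a change of -0.58 ± 0.295 (adjusted p = 0.365). In Rag KO arrays it was at 8.24 and 8.61 and then 9.40 and 9.12, a change of 0.84 ± 0.295 (adjusted p = 0.192) that was called with all 20 arrays in the fit (0.0247). After a second quantile normalization that change was 0.56 (limma, adjusted p = 0.332).

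Prdm1, whose product Blimp-1 is needed for Il10 expression in effector Tregs, ranged from 8.23 to 9.26 in the Rheb experiment, and its stimulated and unstimulated arrays overlapped in both genotypes. The changes were -0.43 ± 0.206 in WT (adjusted p = 0.257) and -0.37 ± 0.206 in Rheb KO cells (adjusted p = 0.355). Its WT arrays of the Rag experiment lay far apart within each state, at 9.08 and 7.50 in unstimulated and 9.30 and 7.47 in stimulated WT cells. Rag KO arrays were at 7.09 and 8.21 unstimulated and 9.40 and 8.91 stimulated, a difference of 1.504 ± 0.571 in the fit with no overlap (adjusted p = 0.227). It was called when all 20 arrays shared 1 spread (adjusted p = 0.0442) and without Rag KO unstimulated array 2 (2.07). After a second quantile normalization it was 1.33 and not called (limma, adjusted p = 0.294). Bach2, which opposes Prdm1 and keeps Tregs in a resting state, changed by 0.11 in WT cells and 0.34 in Rheb KO cells, and by -0.15 in WT cells and 0.53 in Rag KO cells of the Rag experiment, with adjusted p-values of 0.683, 0.103, 0.826 and 0.581.

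Ikzf3 encodes Aiolos, a zinc finger relative of Ikaros. It ranged from 10.13 to 10.49 in the Rheb experiment and from 9.82 to 10.68 in the Rag experiment, the narrowest span of the members above the control level. Its changes were -0.26 ± 0.0948 in WT cells, where the groups did not overlap (adjusted p = 0.118), and -0.06 ± 0.0948 in Rheb KO cells (adjusted p = 0.816). The Rag experiment gave -0.19 ± 0.262 in WT cells (adjusted p = 0.707) and 0.61 ± 0.262 in Rag KO cells (adjusted p = 0.296, and 0.0354 with all 20 arrays in the fit). After a second quantile normalization the Rag KO change was 0.21 (limma, adjusted p = 0.655). Bcl6, the repressor of follicular T cells, lay between 8.03 and 8.75 and between 7.61 and 8.12, with changes of -0.15, -0.14, 0.07 and 0.01 in the same order and overlapping arrays in all 4 cases. Rora, an orphan nuclear receptor of type 2 innate cells and skin Tregs, changed by 0.18 ± 0.116 in WT cells and 0.16 ± 0.116 in Rheb KO cells (adjusted p = 0.434 and 0.492). Its changes in the Rag experiment were 0.22 ± 0.377 in WT cells and 0.79 ± 0.377 in Rag KO cells (adjusted p = 0.772 and 0.371). After a second quantile normalization the Rag KO change was 0.39. Rora has 3 probe sets, and another of them moved more in the knockouts, without a test: its mean went from 10.31 to 10.74 in Rheb KO cells, with no overlap, and from 8.65 to 9.95 in Rag KO cells, also with no overlap.

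**Figure D3:**
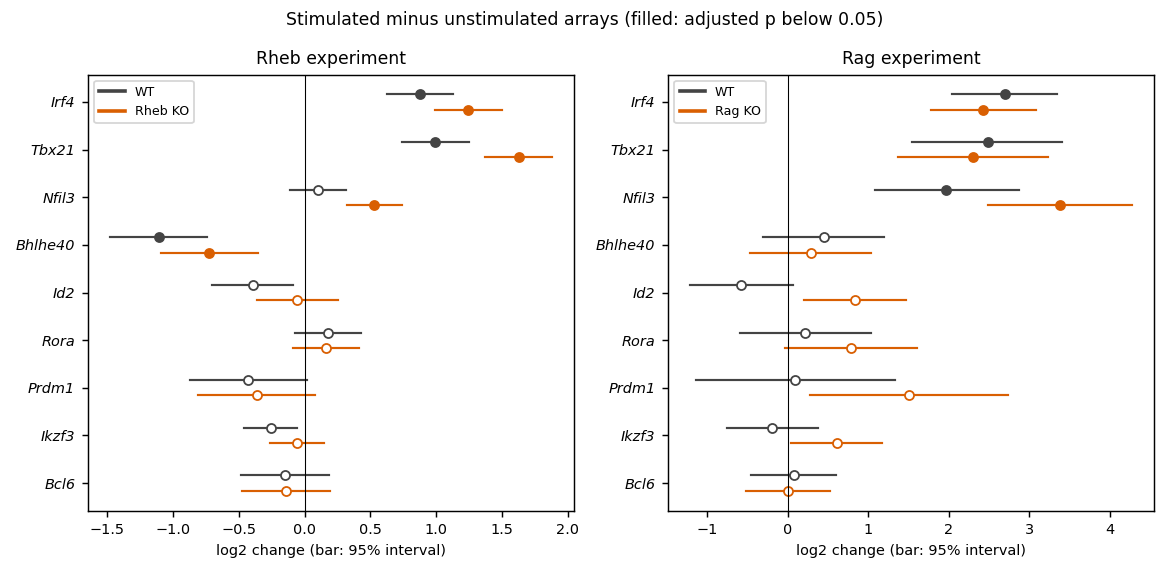
Stimulated minus unstimulated difference in log2 signal (horizontal axis) for the 9 factors in WT and knockout Tregs of the Rheb experiment (left) and the Rag experiment (right), with 95% intervals from limma; filled points passed an adjusted p of 0.05. Irf4 and Tbx21 were called to the right of 0 in all 4 comparisons, Nfil3 in all but WT cells of the Rheb experiment, and Bhlhe40 to the left of 0 in both genotypes of the Rheb experiment.

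Whether the knockouts altered these responses was tested by the interaction of genotype and stimulation. In the Rheb experiment 0 of 9 factors passed the test (limma, 0.00% of all genes), and 3 had an unadjusted p below 0.05, as had 1207 of all 19505 genes. The difference between responses, Rheb KO minus WT, was 0.64 ± 0.167 for Tbx21 (95% interval 0.276 to 0.995, adjusted p = 0.613), 0.43 ± 0.138 for Nfil3 (0.129 to 0.725, adjusted p = 0.701) and 0.37 ± 0.166 for Irf4 (0.00867 to 0.725, adjusted p = 0.804). In the Rag experiment 0 of 9 passed as well (0.00% of all genes). At an unadjusted p below 0.05 were 1202 of all 19505 genes and 3 of the 9 factors. These were Nfil3 at 1.41 ± 0.585 (0.149 to 2.68), Id2 at 1.41 ± 0.417 (0.513 to 2.31) and Ikzf3 at 0.80 ± 0.37 (0.00368 to 1.60), all at an adjusted p of 0.728. For Irf4 the Rag KO response differed from that of WT cells by -0.26 (-1.19 to 0.661).

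The second comparison asked how each knockout changed the factors within a state. Loss of Rheb lowered Nfil3 in unstimulated Tregs, the 1 member of 9 that was called, where 0.508% of all genes were. The 3 unstimulated Rheb KO arrays, at 10.14 to 10.43, all lay below the 3 WT arrays, at 10.99 to 11.09. The fall was 0.76 ± 0.0976 on the log2 scale (1.69-fold, adjusted p = 0.00536). It was not called with all 20 arrays in the fit (adjusted p = 0.528) or with only these 2 groups (adjusted p = 0.0541). In the same comparison 10 of 10 macrophage markers had a change above 0 (median 0.41, 2 called), as had 8 of 9 dendritic cell markers (median 0.27, 2 called) and 6 of 8 NK and innate lymphoid markers (median 0.26, 1 called), and their part in the Nfil3 value was not tested. In stimulated cells the Rheb KO arrays of Nfil3 were again all below the WT arrays, but the difference of -0.33 ± 0.0976 did not pass (adjusted p = 0.235). With stimulation 0 of 9 members were called (limma, 0.543% of all genes). Of all 19505 genes 1804 had an unadjusted p below 0.05, and 5 of the 9 members did. These were Nfil3, Bhlhe40, Tbx21, Rora and Id2.

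Rora was at 9.93, 9.91 and 10.01 in unstimulated WT arrays and 10.33, 10.52 and 10.66 in unstimulated Rheb KO arrays. With stimulation it was at 10.27, 10.21 and 9.91 in WT arrays and 10.62, 10.75 and 10.63 in Rheb KO arrays. All 6 Rheb KO arrays were therefore above all 6 WT arrays. The differences of 0.55 ± 0.116 and 0.53 ± 0.116 missed the threshold (adjusted p = 0.0636 and 0.073). Over the alternatives the adjusted p ran from 0.0157 to 0.858 and from 0.0138 to 1. With each array centred on its median it was 0.125 and 0.121, and with the mean of the probe sets the differences were 0.36 and 0.39, not called. The differences passed after a second quantile normalization (0.0284 and 0.0323), without the dimmest 40% of genes (0.04 and 0.0412) and with a trended and robust prior (0.0157 and 0.0138), and the unstimulated difference also passed without WT stimulated array 3 (0.0352). The other probe set of Rora described above gave 10.16 to 10.39 in unstimulated Rheb KO arrays against 9.75 to 10.08 in WT arrays, and 10.73 to 10.75 against 10.05 to 10.07 with stimulation. In unstimulated Rag KO cells that probe set was lower than in WT cells, at means of 8.65 and 8.89, opposite to the one used here. The third stayed between 4.48 and 5.62 in all arrays, below the median of the negative controls. NK and innate lymphoid markers, a class in which Rora and Id2 are also expressed, had a summed signal of 931 to 1118 in unstimulated Rheb KO arrays against 657 to 822 in WT arrays, and 684 to 760 against 556 to 591 with stimulation. Of these 8 markers 1 was called in unstimulated and 0 in stimulated cells, where 0.508% and 0.543% of all genes were called. Of the 8 markers 0 exceeded the control level in every array of any group, and their part in the Rora values was not tested.

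Of the other members, 0 of 7 were called between Rheb KO and WT cells in either state. Tbx21 was lower in all unstimulated Rheb KO arrays (-0.36 ± 0.118, adjusted p = 0.278), while its difference in stimulated cells was 0.27 ± 0.118 with overlapping arrays (adjusted p = 0.497). Bhlhe40 differed by 0.18 ± 0.171 unstimulated and by 0.56 ± 0.171 with stimulation, where the genotypes did not overlap (adjusted p = 0.257). Irf4 differed by -0.26 ± 0.117 unstimulated and 0.11 ± 0.117 stimulated, with overlapping arrays in both states. Id2 differed by 0.12 ± 0.142 and 0.46 ± 0.142 (adjusted p = 0.842 and 0.271). The differences of Prdm1, Ikzf3 and Bcl6 lay between -0.17 and 0.09, with overlapping arrays throughout, and their widest interval, that of Prdm1 in unstimulated cells, ran from -0.619 to 0.27.

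Between Rag KO and WT cells 0 of 9 members were called unstimulated (limma, 0.113% of all genes) and 0 of 9 with stimulation (0.103%). At an unadjusted p below 0.05 were 2 and 3 members, and 1300 and 988 of all 19505 genes. With 2 arrays per group these counts do not show that the members were unchanged. Bhlhe40 differed most. Its 4 Rag KO arrays, at 10.81 to 11.36, all lay above its 4 WT arrays, at 9.04 to 10.44. The differences were 1.42 ± 0.349 unstimulated (adjusted p = 0.319) and 1.25 ± 0.349 stimulated (adjusted p = 0.373). Both were called with all 20 arrays in the fit (0.0201 and 0.0354), the first also after a second quantile normalization (0.0355) and the second in a fit of only those 2 groups (0.012). Over all alternatives the adjusted p ran from 0.0201 to 0.808 and from 0.012 to 1. The unstimulated difference fell to 0.89 without WT unstimulated array 2, and the stimulated one to 0.83 without WT stimulated array 2. As given above, the summed dendritic cell marker signal was also higher in all 4 Rag KO arrays, while that of the macrophage markers overlapped between genotypes. The median change of the 9 dendritic cell markers was 0.41 unstimulated, with 8 above 0, and -0.01 with stimulation, with 4 above 0.

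Nfil3 was at 7.82 and 7.83 in unstimulated Rag KO arrays, below both WT arrays, a difference of -0.94 ± 0.414 (adjusted p = 0.735). With stimulation its arrays overlapped. Id2 was higher in both stimulated Rag KO arrays than in both WT arrays, by 1.08 ± 0.295 (adjusted p = 0.351). That difference was called with all 20 arrays in the fit (0.0221) and in a fit of only those 2 groups (0.0322). Without WT stimulated array 2 the difference was 0.68. Rora was at 9.78 and 9.16 in unstimulated WT arrays, 9.35 and 10.22 in unstimulated Rag KO arrays, 10.23 and 9.14 in stimulated WT arrays and 10.80 and 10.34 in stimulated Rag KO arrays. Its Rag KO arrays were above the WT arrays with stimulation only, by 0.88 ± 0.377 (adjusted p = 0.931). Irf4 was lower in both stimulated Rag KO arrays, by 0.44 ± 0.303 (adjusted p = 0.947), and Ikzf3 higher, by 0.39 ± 0.262 (adjusted p = 0.947). The Tbx21, Prdm1 and Bcl6 arrays of the genotypes overlapped in both states. Groups of 2 arrays can lie apart without a difference, and the share of all genes that did so is not given here.

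**Figure D4:**
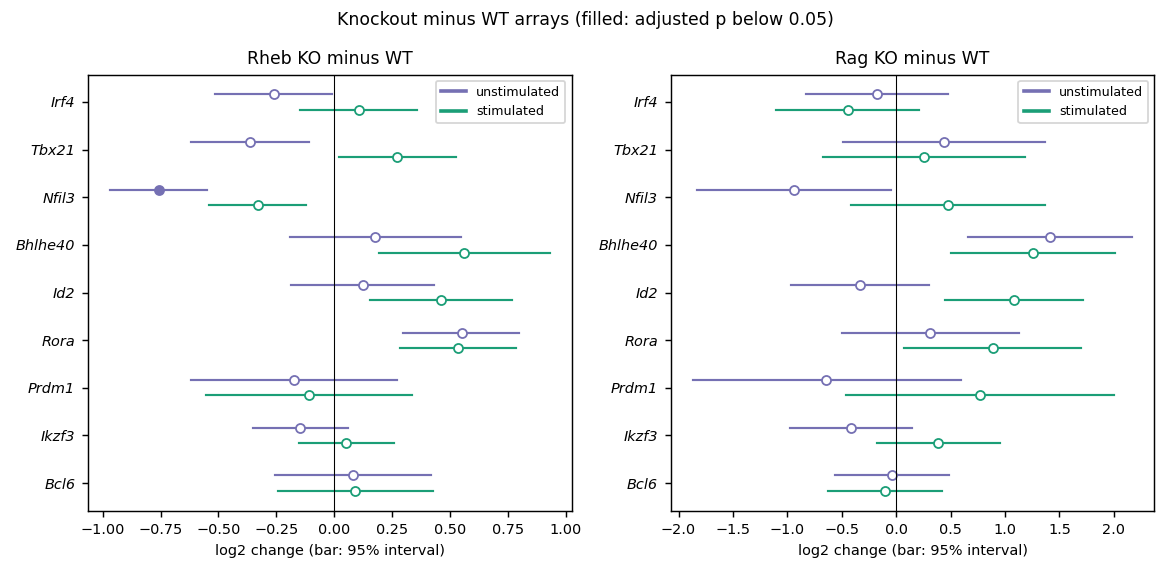
Knockout minus WT difference in log2 signal (horizontal axis) for the 9 factors, Rheb KO on the left and Rag KO on the right, in unstimulated and stimulated Tregs, with 95% intervals from limma; filled points passed an adjusted p of 0.05. The 1 filled point is Nfil3 in unstimulated Rheb KO cells, at -0.76, and the intervals of the Rag experiment are the wider ones.

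The effects of Rag and Rheb loss were set against each other in 1 fit of all 20 arrays. In unstimulated cells 0 of 9 members were called (limma, 0.0564% of all genes). At an unadjusted p below 0.05 were 1426 of all 19505 genes and 1 member. That member was Bhlhe40, where the Rag effect exceeded the Rheb effect by 1.24 ± 0.378 (adjusted p = 0.417). Without WT unstimulated array 1 of the Rag experiment the difference was 1.76 (adjusted p = 0.0327), and that of Tbx21, 0.80 ± 0.43 with all arrays, was 1.62 (adjusted p = 0.0262). In stimulated cells 0 of 9 were called (limma, 0.190% of all genes), and 0 had an unadjusted p below 0.05, against 1377 of all 19505 genes. A member called in 1 knockout and not in the other was thus not shown to differ between them.

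A comparison added after the data had been seen set the stimulation responses of the experiments against each other. In WT cells 2 of 9 members responded more in the Rag experiment, where 0.323% of all genes differed between the experiments. Irf4 rose by 1.82 ± 0.297 more (95% interval 1.2 to 2.43, adjusted p = 0.00553) and Nfil3 by 1.87 ± 0.404 more (1.03 to 2.71, adjusted p = 0.0448). The difference of Irf4 was called under every alternative tried, and that of Nfil3 was lost when any 1 of 16 of the 20 arrays was left out, when the 2 arrays of lowest median signal were left out (1.18) and with a trended and robust prior (adjusted p = 0.0587). Bhlhe40 and Tbx21 differed by 1.56 ± 0.378 and 1.49 ± 0.43, short of the threshold (adjusted p = 0.0845 and 0.159). Bhlhe40 passed after a second quantile normalization (1.44, adjusted p = 0.0445) and without WT unstimulated array 1 (2.08) or WT stimulated array 2 (1.98) of the Rag experiment, and Tbx21 without that unstimulated array (2.31). Between the knockouts 1 of 9 differed, where 0.569% of all genes did: Nfil3 rose by 2.86 ± 0.404 more in Rag KO than in Rheb KO cells (2.01 to 3.70, adjusted p = 0.000952). The difference of Irf4 was 1.19 ± 0.297 (adjusted p = 0.0737), and it was called without either unstimulated WT array of the Rag experiment (adjusted p = 0.0061 in each), without Rag KO unstimulated array 2 (0.0205) or without the 2 arrays of lowest median signal (0.0374). Without Rag KO unstimulated array 2, the differences of Prdm1, Id2 and Ikzf3 were also called, at 2.43, 1.08 and 0.87. The median over all genes was 0.18 in the WT and 0.13 in the knockout comparison. Macrophage markers moved the same way, with 10 of 10 above 0 in the WT comparison (median 0.74, 0 called) and in the knockout comparison (median 1.02, 3 called), as did dendritic cell markers, with 9 of 9 (median 0.71) and 7 of 9 (median 0.56) above 0 and 0 called. Their part in these differences was not tested. Before stimulation Nfil3 exceeded the control level in 3 of 3 arrays of both groups of the Rheb experiment and in 0 of 2 arrays of both groups of the Rag experiment. With stimulation it did so in every array of all 4 groups. The Nfil3 responses thus started from unlike unstimulated signals, those of the Rag experiment lying where control probes also fall. Stimulation time, array batch and experiment cannot be told apart here.

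Factors that act with or against these 9 were followed as a list of 30 genes, of which 26 were measured. With stimulation 6 rose and 6 fell in WT cells of the Rheb experiment (median change -0.11), and 5 rose and 5 fell in Rheb KO cells (median -0.13). The share called among all genes was 9.37% and 9.75%. Fosl2, an AP-1 subunit, rose by 1.36 ± 0.16 and 1.66 ± 0.16 (adjusted p = 0.000155 and 2.38e-05). Jun, the partner of such subunits, fell by 1.16 ± 0.0905 in each genotype (adjusted p = 7.01e-06 and 5.41e-06). Eomes, the T-box relative of Tbx21, fell by 1.00 ± 0.191 in WT cells (adjusted p = 0.00443), opposite in direction to Tbx21. Irf8, a relative of Irf4, rose by 0.57 ± 0.134 in WT cells (adjusted p = 0.0165) and by 1.04 ± 0.134 in Rheb KO cells (adjusted p = 0.000235). Stimulation in the Rag experiment raised 2 of 26 in WT cells (median 0.09), Fosl2 by 2.54 ± 0.303 and Irf8 by 1.63 ± 0.286 (adjusted p = 0.00237 and 0.0158). In Rag KO cells the same 2 genes rose, by 2.99 ± 0.303 and 1.92 ± 0.286 (adjusted p = 0.000733 and 0.00548), and Id3 fell (median of the list 0.32). The share called among all genes was 1.00% in WT and 1.32% in Rag KO cells. No gene of the list was called for either knockout in either state (limma), with 4 and 10 of 26 at an unadjusted p below 0.05 for Rheb loss and 1 and 8 for Rag loss, unstimulated and stimulated. The corresponding counts over all 19505 genes were 1986 and 1804 for Rheb loss and 1300 and 988 for Rag loss.

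Surface and secreted products of effector Tregs formed a second list, with 26 of 29 genes measured. In the Rheb experiment 10 rose and 5 fell with stimulation in WT cells (median change 0.20), and 13 rose and 6 fell in Rheb KO cells (median 0.38). Among all genes 9.37% and 9.75% were called. The inhibitory receptor gene Pdcd1 rose by 1.69 ± 0.158 and 1.91 ± 0.158, and Itgb8, an integrin subunit that activates TGF-β, by 1.25 ± 0.149 and 1.46 ± 0.149. The costimulatory receptor gene Tnfrsf9 rose by 1.22 ± 0.127 and 1.45 ± 0.127. Itgae, the integrin subunit CD103, fell by 2.09 ± 0.19 in WT cells, and S100a6, a calcium-binding protein gene, by 1.05 ± 0.133 in Rheb KO cells. Of these products 2 rose in WT cells of the Rag experiment (median 0.46), the chemokine receptor gene Ccr8 by 1.86 ± 0.333 and Tnfrsf9 by 1.60 ± 0.325. In Rag KO cells 6 rose (median 0.96), led by Tigit at 2.51 ± 0.291, Ccr8 at 2.26 ± 0.333, Tnfrsf9 at 2.07 ± 0.325 and Havcr2 at 2.03 ± 0.35. Among all genes 1.00% were called in WT and 1.32% in Rag KO cells.

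The knockouts lowered 3 of these products in unstimulated Rheb KO cells: Il10 by 1.36 ± 0.206, the ectoenzyme genes Nt5e by 0.71 ± 0.0969 and Entpd1 by 0.70 ± 0.138 (adjusted p = 0.0113, 0.00693 and 0.0463). Among all genes 0.508% were called in that comparison. Il10 is a reported target of both Blimp-1 and BHLHE40, and in those arrays Prdm1 differed by -0.17 and Bhlhe40 by 0.18, neither of them called. Prdm1 exceeded the control level in 0 arrays, and its interval there ran from -0.619 to 0.27. The part of either factor in the Il10 value was not tested. In stimulated Rheb KO cells 0 of 26 were called (limma, 0.543% of all genes), with 6 at an unadjusted p below 0.05, against 1804 of all 19505 genes. In Rag KO cells Nt5e was called in both states, lower by 1.80 ± 0.237 and 1.56 ± 0.237 (adjusted p = 0.0139 and 0.0287), where 0.113% and 0.103% of all genes were called.

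Genes whose pattern over the 8 group means was most like that of a responding factor were found by the smallest root mean square difference, each gene centred within each experiment. For Irf4, whose own group means had a spread of 0.991, these were Map2k3, which encodes a kinase upstream of p38 (0.255), and Ncs1, a calcium sensor gene (0.292). For Tbx21, with a spread of 0.979, they were Fosl2 (0.214) and C1qtnf12 (0.241). For Nfil3, with a spread of 1.01, they were Got1, an aspartate aminotransferase gene (0.389), and Il1rn, the interleukin 1 receptor antagonist gene (0.394). For Bhlhe40, with a spread of 0.606, they were H2-Aa, an MHC class II gene of antigen-presenting cells (0.180), and Ifitm3, an interferon-induced gene (0.219). H2-Aa changed with stimulation by -0.49 in WT and -0.97 in Rheb KO cells, and by 0.21 in WT and 0.26 in Rag KO cells of the Rag experiment. These genes were picked for their likeness over 8 groups of the same 20 arrays, so the differences are a description.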

How the data were processed

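Gene expression was measured on 20 Clariom S mouse arrays. The deposited values are log2 signals per gene, which the authors made by RMA in Affymetrix Expression Console 1.1, per the submitters' processing notes. Whether both experiments were normalized together, and the array's genome build, are not given in the sources used for this work. Of 28846 probe sets, 19572 had 1 gene symbol, and the probe set of highest mean signal was kept for each of 19505 genes. Each experiment was fitted with 1 mean per group in limma 3.58.1 (R 4.3.3), and the differences between experiments in 1 fit of all 20 arrays. Tests were two-sided, with Benjamini-Hochberg adjustment over all genes and a threshold of 0.05. Comparisons within an experiment share arrays. Scripts were tested on simulated data, in which 200 genes changed 2-fold with stimulation in WT cells. Of these 97.4% were recovered in the Rheb and 33.6% in the Rag experiment. Groups follow sample titles. Array number limits precision. The genes named are the 9 members, up to 4 called genes of largest change per list and comparison, and the 2 genes of most like pattern per responding member. Bach2 and Id3 are given as partners, and the targeted genes Rheb and Rraga as label checks. Values of the other targeted genes, Rhebl1 and Rragb, which encodes RagB, are not given here. Members and lists were chosen with earlier results of these data known. The alternatives tried were median centring, a second quantile normalization, the mean of a gene's probe sets, a filter on dim genes, another variance prior, a replicate block, other arrays in the fit and leaving out arrays.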

Additional observations from a re-analysis of the deposited data

Results flagged for a closer look

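The response to stimulation differed between the experiments for 2 factors, by a test of the difference itself in a fit of all 20 arrays. Irf4 rose by 1.82 more on the log2 scale in WT cells of the Rag experiment than in WT cells of the Rheb experiment (limma, adjusted p = 0.00553). Nfil3 rose by 1.87 more in WT cells (adjusted p = 0.0448) and by 2.86 more in Rag KO than in Rheb KO cells (adjusted p = 0.000952). The unstimulated Nfil3 signal exceeded the control level in 3 of 3 arrays of both Rheb experiment groups and in 0 of 2 of both Rag experiment groups. The responses therefore did not start from like signals. The comparison was added after the data had been seen, and the experiments differ in arrays per group and in array medians. The Irf4 difference was called under all 27 alternatives, at 1.31 to 2.33, and the Nfil3 difference between the knockouts likewise, at 2.51 to 2.96; these include centring each array on its median and a second quantile normalization. The Nfil3 difference in WT cells was 1.18 without the 2 arrays of lowest median signal (adjusted p = 0.208).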

How the results depend on the processing

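The 126 member values were recomputed under 16 to 27 alternatives each, which gave 2619 recomputed values. Of these 2550 kept their side of the threshold, 36 lost and 33 gained a call, and 0 called values reversed. Some alternatives left out an array outside the comparison, which leaves the difference itself unchanged. Values that were not called did change sign in places, among them Bhlhe40 and Bcl6 with stimulation in Rag KO cells and Prdm1 and Bcl6 in WT cells of the Rag experiment under another scaling. With all 20 arrays in the fit, 2 of 9 factors were called for stimulation in Rheb KO cells, 6 for stimulation in Rag KO cells, 0 for Rheb loss in unstimulated cells, and 1 and 2 for Rag loss in unstimulated and stimulated cells. With only the 2 groups compared, the counts were 0 for Rheb loss in unstimulated cells and 2 for Rag loss in stimulated cells. A second quantile normalization, the filter on dim genes and the trended and robust prior each gave 2 for Rheb loss in unstimulated and 1 in stimulated cells. The quantile normalization gave 1 for Rag loss in unstimulated cells, and the trended and robust prior gave 1 for the WT response between experiments. Without the 2 arrays of lowest median signal, an alternative added after seeing the data, the counts were 2 for stimulation in WT cells of the Rag experiment, 2 for Rag loss in stimulated cells, 1 for the WT response and 2 for the knockout response between experiments. For Rag loss in stimulated cells, the fit without the 2 arrays of lowest median signal was the same calculation as that of only the 2 groups. The cause of these shifts was not tested. Over all alternatives the count of all called genes ran from 806 to 2286 (main 1828) and 920 to 2331 (1901) for stimulation in WT and Rheb KO cells, 13 to 1930 (195) and 45 to 2146 (258) in WT and Rag KO cells, 27 to 200 (99) and 13 to 214 (106) for Rheb loss, 0 to 530 (22) and 2 to 274 (20) for Rag loss, 0 to 7 (0) and 0 to 387 (0) for the Rheb and Rag interactions, 3 to 871 (11) and 12 to 130 (37) for the Rag minus Rheb differences, and 19 to 1968 (63) and 45 to 2227 (111) for the responses between experiments.

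Leaving out each array in turn gave 3 to 4 called factors for stimulation in WT and in Rheb KO cells of the Rheb experiment, 1 to 3 in WT and 2 to 4 in Rag KO cells of the Rag experiment, and 1 to 2 for Rheb loss in unstimulated cells. It gave 0 to 0 for Rheb loss in stimulated cells, for Rag loss in both states, for both interactions and for the Rag minus Rheb difference in stimulated cells, and 0 to 2 for that difference in unstimulated cells. It gave 1 to 4 for the WT and 1 to 5 for the knockout response between experiments. Where 1 of 2 arrays was left out, the lone array was assumed to vary like the other groups.

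With the replicate number as a block, the counts were 3, 4, 3 and 3 for stimulation (WT and Rheb KO, WT and Rag KO), 1 for Rheb loss in unstimulated cells, and 2 and 1 for the responses between experiments, as without it. Not every pair of arrays of the same number deviated together. In the Rheb experiment their correlations ran from -0.20 to 0.18, with 2 of 18 above 0.1 against 6 of 36 pairs of different number. In the Rag experiment they ran from -0.43 to 0.23. With 2 arrays per group the deviations mirror each other. Pairs of different number then give the same correlations with the sign reversed and are no separate comparison.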
